A study of Mus musculus with 12 samples.

Results

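Skeletal muscle changes its fuel when food is scarce. Described here are 8 genes that are known to rise in fasted muscle or to respond to the fatty acid sensors of the PPAR family: Pdk4, Ucp3, Angptl4, Cpt1a, Acot2, Plin2, Plin5 and Txnip. They were chosen by function, from knowledge of the pathway, and not by a threshold on these counts. Earlier results of these data were known when they and the lists around them were chosen. All 8 were listed among the 26264 genes of the count files and all 8 were among the 13499 genes that passed the filter on low counts and were tested.

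RNA was sequenced from mouse tibialis anterior, a fast-twitch muscle at the front of the lower leg. The 12 libraries formed 3 groups of 4: muscle injected with matrix gel, muscle injected with phosphate-buffered saline (PBS), the vehicle, and uninjured muscle. Gel, at 6 mg per ml, and PBS were each given in a volume of 50 µl, the gel on the left and PBS on the right, so a gel and a PBS library that carry 1 number were read as the legs of 1 animal, and treatment cannot be told apart from side. The uninjured libraries have no such partner. Strain, sex, age, genotype, the kind of injury, the time to collection and whether the animals had fed or fasted are not stated in the labels, so a difference from uninjured muscle covers all that separated these groups.

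In fed muscle, pyruvate dehydrogenase passes carbon from glucose into the citrate cycle. When fatty acids arrive from fat stores, they bind PPAR receptors, which pair with RXR partners on DNA, while falling insulin lets FOXO factors enter the nucleus and glucocorticoids rise. Together these signals raise genes that close the pyruvate entry (Pdk4), limit lipid delivery and glucose uptake (Angptl4, Txnip), admit and handle fatty acids in mitochondria (Cpt1a, Acot2, Ucp3) and coat stored lipid (Plin2, Plin5).

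Promoter windows were looked up because these genes are often described as sharing control by PPAR and FOXO factors. The RefSeq table for build GRCm38.p6, an older build than the mm39 of the counts, holds 250 bases before and 50 after each start and matched 7 of the 8 genes, with none for Angptl4. The windows of Pdk4, Ucp3, Plin2 and Txnip are shown: those of Pdk4, Ucp3 and Plin2 because these genes were called against uninjured muscle, and that of Txnip for its FOXO match. Capitals mark matches to the motifs named after them.
Pdk4, chr6:5496229-5496528, minus strand: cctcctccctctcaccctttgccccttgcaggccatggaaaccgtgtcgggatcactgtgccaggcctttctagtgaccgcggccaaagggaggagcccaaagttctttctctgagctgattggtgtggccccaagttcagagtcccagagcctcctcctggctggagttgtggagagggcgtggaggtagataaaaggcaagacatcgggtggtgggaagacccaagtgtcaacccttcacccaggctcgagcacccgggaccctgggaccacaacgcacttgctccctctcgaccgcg
Ucp3, chr7:100472741-100473040, plus strand: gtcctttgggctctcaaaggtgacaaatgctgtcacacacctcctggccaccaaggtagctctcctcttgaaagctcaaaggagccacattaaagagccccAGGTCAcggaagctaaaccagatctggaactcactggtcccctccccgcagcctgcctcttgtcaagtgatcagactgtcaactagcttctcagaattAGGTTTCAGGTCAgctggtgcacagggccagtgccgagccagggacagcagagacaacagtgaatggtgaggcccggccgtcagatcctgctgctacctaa
Plin2, chr4:86670010-86670309, minus strand: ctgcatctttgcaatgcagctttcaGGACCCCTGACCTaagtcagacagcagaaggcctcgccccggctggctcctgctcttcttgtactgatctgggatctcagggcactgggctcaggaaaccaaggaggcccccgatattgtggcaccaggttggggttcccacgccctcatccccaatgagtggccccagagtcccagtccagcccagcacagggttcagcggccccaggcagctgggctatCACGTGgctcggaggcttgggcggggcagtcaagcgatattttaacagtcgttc
Txnip, chr3:96557707-96558006, plus strand: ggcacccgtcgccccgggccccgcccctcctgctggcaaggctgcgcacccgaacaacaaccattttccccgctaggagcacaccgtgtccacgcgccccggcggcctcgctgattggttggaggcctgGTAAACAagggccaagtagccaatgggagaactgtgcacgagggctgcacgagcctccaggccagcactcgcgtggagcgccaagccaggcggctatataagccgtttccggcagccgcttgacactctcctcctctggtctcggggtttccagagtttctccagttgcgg

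A total of 4 motifs were searched on both strands, with -1 the base before the start and 1 the start itself. The nuclear receptor half-site AGGTCA was in the windows of Ucp3, Cpt1a, Plin2 and Plin5, and in 16.3% of 32851 promoter windows in the table. The direct repeat AGGTCANAGGTCA, the form PPAR and RXR bind as a pair, was searched with up to 2 mismatches and overlaps the half-site. Ucp3 holds such a match, AGGTTTCAGGTCA, from -51 to -39, and Plin2 holds one on the other strand from -225 to -213. Matches of this kind were in 3.86% of all windows. Txnip alone among the 7 held the FOXO core GTAAACA, from -121 to -115, against 3.65% of all windows. The E-box CACGTG lay across the start of Plin2, from -4 to 2, and was in 7.15% of all windows. The Pdk4 and Acot2 windows held none of these letters, which says nothing of sites outside them.

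Library totals ran from 15626086 to 22182483 counts, and muscle fibre markers took 21.4 to 28.5% of the counts in every library. One gel library, gel 3, stood apart from the other three. Along principal component 1 (50.7% of the variance), gel 1, 2 and 4 lay between -91.4 and -67.4 and gel 3 at 5.39, while PBS and uninjured libraries lay between 17.2 and 46.5. The summed level of 15 macrophage and monocyte markers was 1230, 2408 and 2671 CPM (edgeR's counts scaled to a common library total) in gel 1, 2 and 4, 110.1 CPM in gel 3, and 32.1 to 88.7 CPM in the PBS and uninjured libraries. The summed level of 14 muscle fibre markers was lower in all 4 gel libraries than in every uninjured one, at 172500 to 260600 against 286300 to 317600 CPM, with PBS at 254400 to 289400 CPM. Fibroblast markers summed to 501 to 3046 CPM with gel, 420 to 1052 CPM with PBS and 488 to 775 CPM in uninjured muscle, and endothelial markers to 181 to 527, 271 to 490.0 and 344 to 413 CPM. Adipocyte markers summed to 96.0 to 217, 96.5 to 135 and 162 to 179 CPM, with Lep, Retn, Plin1 and Cidec at no more than 15 counts in any library. Fabp4 alone made up most of each sum, with 87.3 CPM in gel 3 and 193 CPM in gel 1. Adipoq was at most 1.253 CPM, so these sums follow Fabp4 more than the whole list. Brown fat markers stayed at or under 7.14 CPM, with Ucp1 at 0 to 2 counts. In bulk RNA, fewer cells of a type and less RNA per cell cannot be told apart, and the part of these cell types in the results that follow was not tested.

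**Figure D1:**
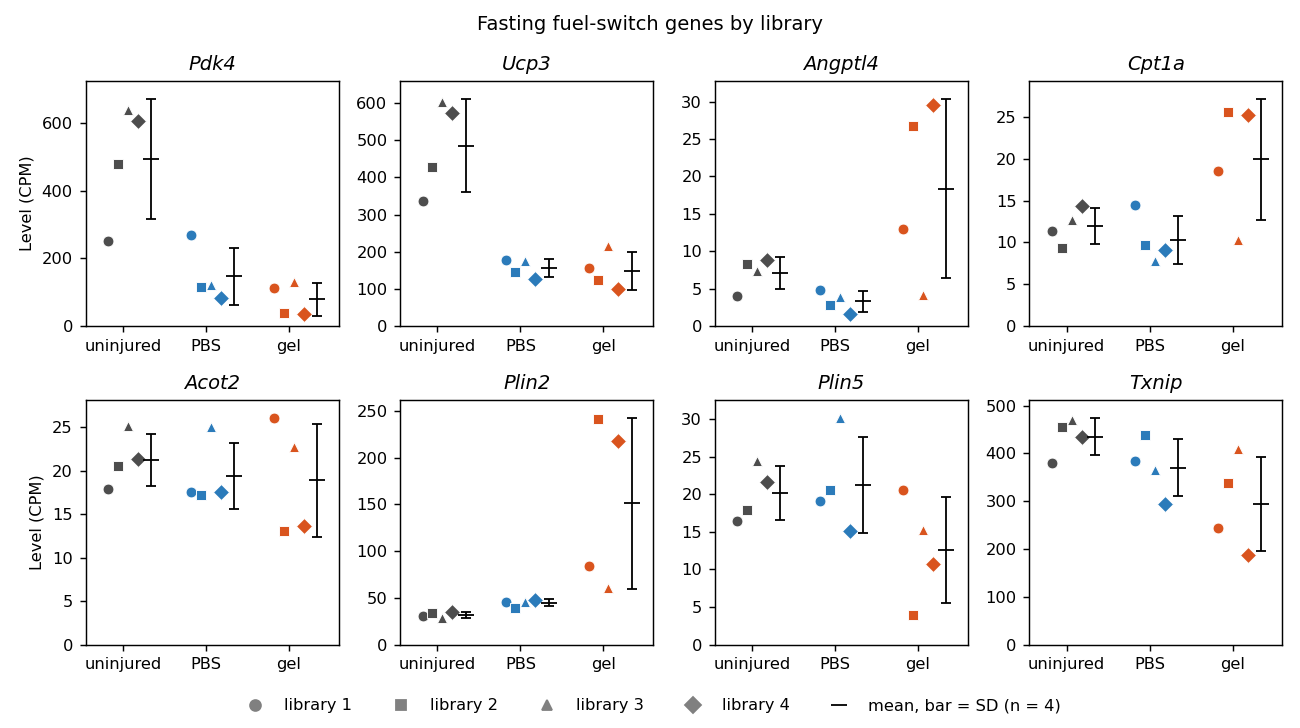
Levels of the 8 genes in CPM (vertical axes, each starting at 0) in the 12 libraries, by group, with marker shape giving the library number and the bar the mean and SD of 4. Pdk4 and Ucp3 are highest in uninjured muscle, Plin2 is highest with gel, and gel 3 lies apart from gel 2 and gel 4 in most panels.

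Pdk4 and Ucp3 had higher means in uninjured muscle than in either injected group. Pdk4 encodes pyruvate dehydrogenase kinase 4, which switches off the pyruvate dehydrogenase complex. Its level was 250.1, 480.1, 639 and 607 CPM in uninjured libraries 1 to 4, 269, 115, 121 and 81.9 CPM with PBS, and 112, 38.1, 130 and 34.2 CPM with gel. Uninjured 1 was the lowest of its group and PBS 1 the highest of its own, and these overlap, while every gel library lay under every uninjured one. The means were 494 ± 176.5, 147 ± 83.3 and 78.4 ± 49.4 CPM (SD, n = 4 each), so uninjured muscle held 6.3 times the level of gel-treated muscle. By edgeR's quasi-likelihood test with Benjamini-Hochberg adjustment, Pdk4 fell from uninjured to gel by 2.66 ± 0.56 (SE) on the log2 scale (adjusted p = 0.00683), and without gel 3 the difference was -3.03 (adjusted p = 0.00549).

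The difference in Pdk4 between PBS and uninjured muscle was -1.75 ± 0.54 and did not pass edgeR's test (adjusted p = 0.0831). It did pass DESeq2's Wald test (-1.74, adjusted p = 0.0187) and limma voom (-1.82, adjusted p = 0.0401). The other 19 of 21 alternatives did not pass, with an edgeR adjusted p of up to 0.195, reached without PBS 2. Between legs read as those of 1 animal, gel minus PBS was -1.27, -1.60 and -1.26 in animals 1, 2 and 4 and 0.11 in animal 3. Without the pairing this came to -0.91 ± 0.53 in the fit of all 3 groups (edgeR adjusted p = 0.221). In a fit of gel and PBS alone it was -0.90 ± 0.55 (adjusted p = 0.273). With the animal as a block added to that fit it was -1.01 ± 0.27 (adjusted p = 0.0312). Without PBS 1, the highest of its group, the unpaired difference was -0.44 (adjusted p = 0.539), and under scaling to muscle fibre markers it was -0.58 (adjusted p = 0.346).

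Ucp3 encodes uncoupling protein 3, an inner mitochondrial membrane carrier of muscle. Uninjured libraries 1 to 4 held 337, 429, 602 and 575 CPM. PBS libraries held 179, 146, 175 and 127 CPM, and gel libraries 156, 123, 215 and 99.5 CPM. No injected library reached the lowest uninjured one, while gel and PBS ranges overlapped. Ucp3 fell by 1.63 ± 0.24 on the log2 scale from uninjured to PBS (edgeR adjusted p = 0.00137), a 3.1 times higher mean in uninjured muscle, and by 1.71 ± 0.24 from uninjured to gel (adjusted p = 0.000345). Gel against PBS gave -0.08 ± 0.23 (adjusted p = 0.822), and -0.33 without gel 3 (adjusted p = 0.221). PBS and gel were compared with the same uninjured libraries, so those 2 falls are not independent of each other.

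Txnip encodes thioredoxin-interacting protein, an arrestin-family protein that restrains glucose uptake. Its levels were 380.2, 456, 471 and 434 CPM in uninjured muscle, 384, 438, 364 and 294 CPM with PBS, and 244, 337, 410 and 186 CPM with gel. The groups overlapped, with gel 1 and gel 4 under all PBS and uninjured libraries and gel 3 among them. Gel against uninjured gave -0.57 ± 0.20 (edgeR adjusted p = 0.0513), just outside the threshold, and without gel 3 it was -0.78 (adjusted p = 0.00213). DESeq2 (adjusted p = 0.0231), limma voom (0.0449) and 4 further settings also brought this difference past the threshold, while scaling to muscle fibre markers left -0.097 (adjusted p = 0.58). Gel against PBS gave -0.33 ± 0.20 (adjusted p = 0.227), and -0.55 without gel 3 (adjusted p = 0.018), but 0.029 when libraries were scaled to muscle fibre markers. PBS against uninjured gave -0.23 ± 0.20 (adjusted p = 0.54).

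**Figure D2:**
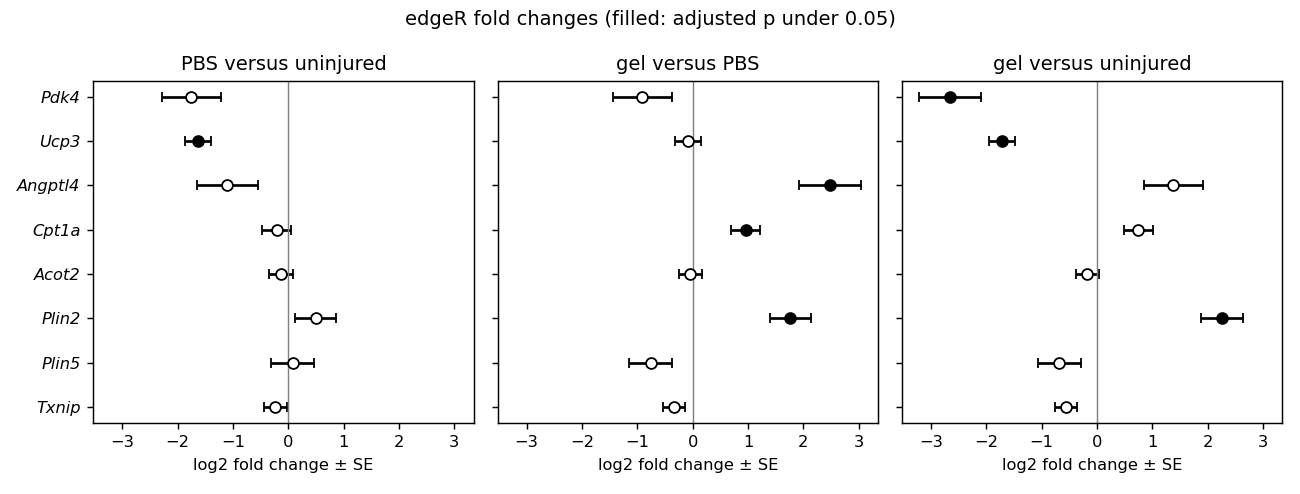
Log2 fold changes of the 8 genes (horizontal axis) for PBS minus uninjured, gel minus PBS and gel minus uninjured, with bars of 1 SE, filled where edgeR's adjusted p was under 0.05. Ucp3 is filled on the negative side against uninjured muscle in both injected groups, and Plin2 is filled on the positive side in both comparisons with gel.

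Plin2, Angptl4 and Cpt1a were higher with gel. Plin2 encodes perilipin 2, the coat protein of lipid droplets in many cell types, foamy macrophages included. It was at 30.3, 33.4, 28.3 and 34.7 CPM in uninjured libraries and 46.0, 39.1, 46.0 and 47.2 CPM with PBS. With gel it was at 84.4, 242, 60.5 and 217 CPM. None of the 3 groups overlapped, and gel 2 and gel 4 were well above gel 1 and gel 3. The gel mean of 151 ± 91.7 CPM was 3.39 times the PBS mean of 44.6 ± 3.69 and 4.77 times the uninjured mean of 31.7 ± 2.92 CPM. Plin2 rose by 1.76 ± 0.37 on the log2 scale over PBS (edgeR adjusted p = 0.00574) and by 2.26 ± 0.38 over uninjured muscle (adjusted p = 0.00187).

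Without gel 3 those 2 Plin2 differences were 2.01 (adjusted p = 0.000205) and 2.504 (adjusted p = 5.73e-05). In a fit of gel and PBS alone the difference from PBS was 1.76 ± 0.42 (edgeR adjusted p = 0.0246). With the animal as a block added to that fit it was 1.53 ± 0.43 and missed the threshold (adjusted p = 0.0578). The order of the gel libraries in Plin2 was that of the macrophage marker sum except for gel 2 and gel 4, which changed places. With the same exception it was the reverse of the muscle fibre marker sum, at 212200, 203900, 260600 and 172500 CPM in gel 1 to 4. What sets this order was not tested. PBS against uninjured gave 0.49 ± 0.37 for Plin2 (edgeR adjusted p = 0.472), although the groups did not overlap. That SE comes from a spread shared by all 3 groups, with SDs of 91.7 CPM with gel, 3.69 with PBS and 2.92 in uninjured muscle. A fit of PBS and uninjured alone gave 0.50 ± 0.10 (edgeR adjusted p = 0.00236).

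Angptl4 encodes a secreted inhibitor of lipoprotein lipase, the enzyme that frees fatty acids from circulating triglyceride. It was at 3.98, 8.28, 7.30 and 8.86 CPM in uninjured libraries, 4.84, 2.83, 3.89 and 1.56 CPM with PBS, and 13.0, 26.8, 4.15 and 29.6 CPM with gel. Gel 1, 2 and 4 lay above every other library, and gel 3 lay within the PBS range. The gel mean was 18.4 ± 11.9 CPM, 5.6 times the PBS mean of 3.28 ± 1.41 CPM. Angptl4 rose by 2.48 ± 0.56 over PBS (edgeR adjusted p = 0.00808) and without gel 3 by 2.80 (adjusted p = 0.000133). In a fit of gel and PBS alone the rise was 2.49 ± 0.61 (edgeR adjusted p = 0.0284). With the animal as a block added to that fit it was 2.24 ± 0.80 and missed the threshold (adjusted p = 0.118). Gel against uninjured gave 1.38 ± 0.53 (adjusted p = 0.0786), and 1.70 without gel 3 (adjusted p = 0.00343). PBS against uninjured gave -1.10 ± 0.56 (edgeR adjusted p = 0.273). In a fit of those 2 groups alone it was -1.10 ± 0.32 (edgeR adjusted p = 0.027), the only 1 of 21 alternatives that passed.

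Cpt1a encodes carnitine palmitoyltransferase 1A, the liver-type form of the enzyme that commits fatty acids to the mitochondrion. Uninjured libraries held 11.4, 9.30, 12.6 and 14.4 CPM, PBS libraries 14.4, 9.73, 7.79 and 9.12 CPM, and gel libraries 18.6, 25.6, 10.3 and 25.2 CPM. As for Angptl4, gel 1, 2 and 4 were above all others and gel 3 was not. Cpt1a rose by 0.96 ± 0.26 over PBS (edgeR adjusted p = 0.0158), and the animal block kept the call at 0.91 (adjusted p = 0.018). It was lost without gel 2, gel 4 or PBS 3, at adjusted p of 0.0528, 0.0548 and 0.0504, and without gel 3 it was 1.16 (adjusted p = 0.000132). Gel against uninjured gave 0.74 ± 0.26 (adjusted p = 0.0517), and 0.95 without gel 3 (adjusted p = 0.000921). It passed under 6 alternatives in all, among them DESeq2 (adjusted p = 0.0291) and scaling to muscle fibre markers, which gave 1.31 (adjusted p = 0.00673). PBS against uninjured gave -0.21 ± 0.27 (adjusted p = 0.70).

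**Figure D3:**
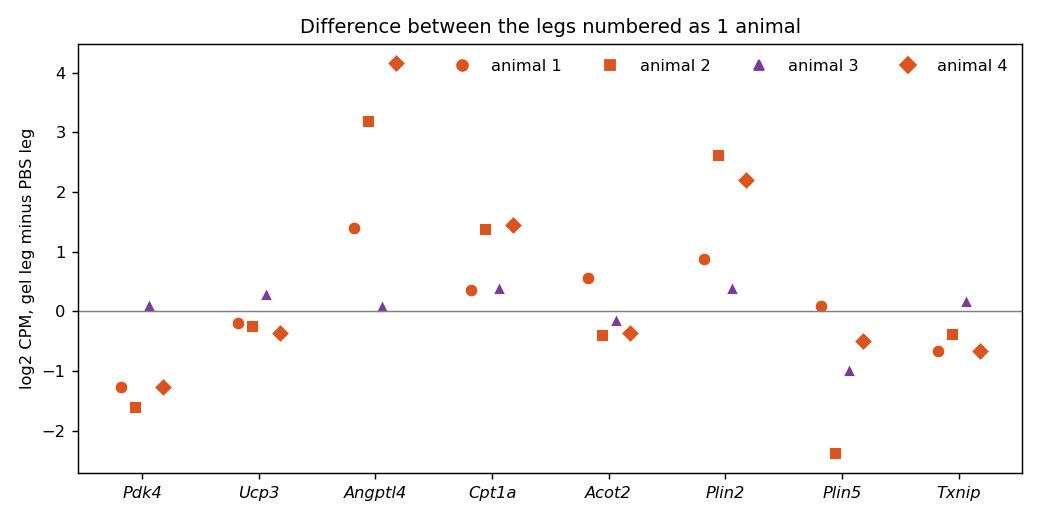
Log2 difference between the gel leg and the PBS leg of each animal, as read from the library numbers (vertical axis) for the 8 genes, with marker shape giving the animal. Plin2, Angptl4 and Cpt1a are above 0 in all 4 animals, though Angptl4 in animal 3 only by 0.09, from equal counts in both legs. Animal 3 is closest to 0 for Plin2 and Angptl4.

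Taking equal numbers as 1 animal, the gel leg held more Plin2 than the PBS leg by 0.87, 2.62, 0.40 and 2.201 on the log2 scale in animals 1 to 4. Angptl4 was higher by 1.40, 3.20, 0.09 and 4.15, and Cpt1a by 0.36, 1.39, 0.39 and 1.45. The direction was thus shared by all 4 animals for Plin2 and Cpt1a. For Angptl4, gel 3 and PBS 3 each held 68 counts, so the 0.09 of animal 3 rests on library scaling alone. The size ranged widely for these 3 genes, with animals 2 and 4 highest.

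Acot2 and Plin5, both tied to mitochondrial fatty acid handling in muscle fibres, passed the test in no comparison. Acot2 encodes a mitochondrial thioesterase that splits long-chain acyl-CoA. Its levels were 17.9, 20.6, 25.2 and 21.3 CPM in uninjured libraries, 17.6, 17.2, 25.0 and 17.5 CPM with PBS, and 26.1, 13.1, 22.7 and 13.7 CPM with gel. The groups overlapped, and gel 1 and gel 3 were above gel 2 and gel 4. The differences were -0.14 ± 0.21 for PBS against uninjured (edgeR adjusted p = 0.769), -0.04 ± 0.21 for gel against PBS (adjusted p = 0.909) and -0.17 ± 0.21 for gel against uninjured (adjusted p = 0.584).

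Plin5 encodes perilipin 5, which ties lipid droplets to mitochondria in oxidative tissue. Uninjured libraries held 16.5, 17.9, 24.4 and 21.7 CPM, PBS libraries 19.2, 20.6, 30.2 and 15.1 CPM, and gel libraries 20.5, 3.88, 15.3 and 10.7 CPM. Gel 2, 3 and 4 had less than the PBS library of the same number, by 2.38, 0.98 and 0.49 on the log2 scale, and gel 1 had 0.10 more. Over the group the difference was -0.76 ± 0.39 against PBS (edgeR adjusted p = 0.161) and -0.68 ± 0.39 against uninjured muscle (adjusted p = 0.224). Without gel 2, the lowest library, these were -0.48 and -0.40, and under scaling to muscle fibre markers -0.37 and -0.195, and none of the 4 passed. PBS against uninjured gave 0.08 ± 0.39 (adjusted p = 0.932).

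Counted together, 1 of the 8 genes fell and 0 rose from uninjured to PBS, where 6.17% of all genes tested passed the test, 2.79% upward and 3.39% downward. From PBS to gel 3 of the 8 rose and 0 fell, where 29.8% of all genes passed, 16.6% upward and 13.2% downward, and from uninjured to gel 1 rose and 2 fell, where 25.6% passed, 14.5% upward and 11.1% downward. Their median log2 fold changes were -0.22, -0.06 and -0.37, beside 0.00, 0.04 and 0.03 over all genes tested. Groups did not overlap for 2 of the 8 between PBS and uninjured, 1 between gel and PBS and 3 between gel and uninjured, beside 20.6%, 20.1% and 23% of all genes. The 8 genes therefore did not move as 1 block, and their medians hide falls in Pdk4 and Ucp3 and rises in Plin2, Angptl4 and Cpt1a. The shares of all genes given here also stand beside the counts of each gene list below.

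Levels along the 12 libraries also differed among the 8 genes. Pearson's r of log2 CPM was 0.933 between Pdk4 and Ucp3 and 0.873 between Angptl4 and Cpt1a, and -0.846 between Pdk4 and Plin2. These values are descriptions, since the libraries share groups and animals. Among 9103 other genes with a mean of at least 5 CPM, the closest to Ucp3 were Plin4 (0.987), Ino80 (0.969) and Hr (0.968), and those close to Pdk4 included Fmo2 (0.943) and Timp3 (0.940). The closest to Plin2 were the lysosomal protease genes Ctsb (0.984) and Lgmn (0.983) and the actin nucleator gene Actr3 (0.977). Angptl4 was closest to Tpcn2 (0.959), Iqgap1 (0.944) and Pfkp (0.941), and Cpt1a to Tor3a (0.984), Col5a2 (0.963) and Ppic (0.961), the second of these a fibrillar collagen gene. Plin5 was closest to mitochondrial genes, namely Sdhb (0.947), Mrpl14 (0.944) and Fh1 (0.939). Acot2 was closest to Slc25a22 (0.888), Eral1 (0.872) and Bcat2 (0.856), and Txnip to Sema3c (0.938), Vwa7 (0.932) and Aldh7a1 (0.928).

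Levels per length place each gene among its relatives. Pdk2, the most abundant pyruvate dehydrogenase kinase here, stood at 533 ± 30.3 CPM per kb of exon in uninjured muscle (SD, n = 4), 705 ± 44.9 with PBS and 422 ± 143 with gel. Pdk4 was at 142 ± 50.7, 42.1 ± 23.9 and 22.5 ± 14.2 CPM per kb, under Pdk2 in all 3 groups. Pdk2 fell from PBS to gel by 0.74 ± 0.19 (edgeR adjusted p = 0.00977), with 1435, 1608, 1634 and 1657 CPM in PBS libraries and 1053, 767, 1348 and 623 CPM with gel. Its difference between PBS and uninjured was 0.40 ± 0.19 (adjusted p = 0.218).

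Ucp3 stood at 198 ± 51.1 CPM per kb in uninjured muscle, and its relative Ucp2, which is broadly expressed and abundant in immune cells, at 10.9 ± 2.75. With gel Ucp3 was at 60.5 ± 20.5 and Ucp2 at 38.1 ± 21.6 CPM per kb, within their spread of each other. Ucp2 was at 157, 236, 33.0 and 182 CPM in gel 1 to 4 and between 20.2 and 22.6 CPM in all 4 PBS libraries. Ucp2 rose by 2.83 ± 0.48 over PBS (edgeR adjusted p = 0.00301).

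Among the perilipins, Plin4 had the highest mean in uninjured muscle and Plin2 with gel. Plin4, a perilipin of muscle and fat, was at 136 ± 35.6 CPM per kb in uninjured muscle, 35.9 ± 2.53 with PBS and 32.6 ± 13.0 with gel. Plin2 was at 16.8 ± 1.55, 23.6 ± 1.95 and 79.9 ± 48.6 CPM per kb. Plin4 held 486, 810, 890 and 946 CPM in the uninjured libraries and at most 224 CPM with PBS and 288 CPM with gel. Like Ucp3, Plin4 fell against uninjured muscle in both injected groups, by 1.92 ± 0.26 with PBS (edgeR adjusted p = 0.000837) and by 2.06 ± 0.26 with gel (adjusted p = 0.000201). Its RefSeq span overlaps that of Hdgfl2, so a share of its reads may be misassigned. Plin3 fell from PBS to gel by 0.40 ± 0.13 (adjusted p = 0.0281), a call lost with the animal block (adjusted p = 0.0771), and Plin5 and Plin3 were at 10 CPM per kb or less in most groups, with means from 5.39 to 10.2.

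**Figure D4:**
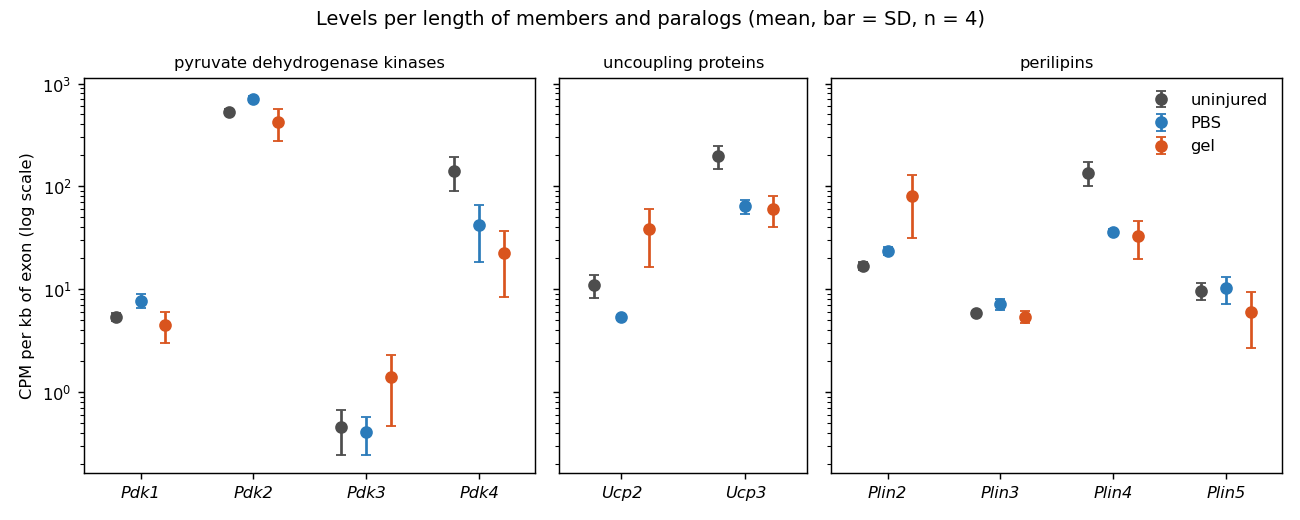
Mean level per kb of exon (vertical axis, log scale) of pyruvate dehydrogenase kinases, uncoupling proteins and perilipins in uninjured, PBS and gel muscle, with bars of 1 SD over 4 libraries. Pdk2 lies above Pdk4 in every group, and Plin2 lies above Plin4 with gel only.

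The other close relatives gave these values. Arrdc2, an arrestin-family relative of Txnip, fell from uninjured muscle by 3.04 ± 0.54 with PBS (edgeR adjusted p = 0.0103) and by 2.69 ± 0.54 with gel (adjusted p = 0.0056), with means of 240.2, 29.2 and 37.5 CPM. Arrdc4, the closer relative, differed by -0.30 ± 0.20 between PBS and uninjured muscle (adjusted p = 0.427). Angptl2 rose by 0.88 ± 0.17 with PBS over uninjured muscle (adjusted p = 0.00681), where Angptl4 did not pass the main test, though the Angptl2 span overlaps Ralgps1. Cpt1b, the muscle-type partner of Cpt1a, was counted at only 2.23 ± 1.01, 1.32 ± 0.21 and 1.20 ± 0.53 CPM in uninjured, PBS and gel muscle. Its RefSeq span is shared with the readthrough gene Gm44502, so its level is uncertain, and it passed in no comparison. Acot1, a near-identical copy of Acot2, had 0 to 28 counts and was not tested, so reads of the pair cannot be assigned with certainty. Of 20 listed relatives 14 were tested: 1 rose and 2 fell with PBS over uninjured, 3 rose and 3 fell with gel over PBS, and 3 rose and 2 fell with gel over uninjured, with medians of -0.29, 0.00 and -0.26. In the same 3 comparisons 6.17%, 29.8% and 25.6% of all genes tested passed.

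Of the factors that act on these genes, more fell than rose with gel under the usual scaling, but not under scaling to muscle fibre markers. Of 24 PPAR, RXR, FOXO and partner genes, 12 fell and 1 rose from PBS to gel, with a median of -0.49 beside 0.04 over all genes. This count rests on the scaling: when libraries were scaled to muscle fibre markers, which moved the median of all genes by 0.41, 4 fell and 5 rose and the median was -0.12. Foxo4 fell by 1.20 ± 0.20 (edgeR adjusted p = 0.00197), Rxra, a PPAR partner, by 1.05 ± 0.19 (adjusted p = 0.00227), and Lpin1, a PPAR coactivator and lipid enzyme, by 1.01 ± 0.19 (adjusted p = 0.00261). Without gel 3, 16 fell and 1 rose. From uninjured to gel 11 fell and 3 rose, with a median of -0.43, and under muscle marker scaling 5 fell and 7 rose with a median of 0.06.

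From uninjured to PBS only 2 of the 24 factors rose and 2 fell, with a median of 0.03. Foxo1, which drives Pdk4 in fasting, was among those that fell, by 1.40 ± 0.22 (edgeR adjusted p = 0.0024), from 38.1, 68.3, 79.2 and 69.5 CPM to 23.5, 22.95, 18.6 and 31.9 CPM, with no overlap. With gel it was at 18.9, 16.4, 15.7 and 12.1 CPM, 2.02 ± 0.22 under uninjured muscle on the log2 scale (adjusted p = 8.74e-05). Uninjured 1 was the lowest of its group for Foxo1, as for Pdk4, Ucp3 and Plin4. Ppargc1b, a coactivator of oxidative genes, rose by 1.30 ± 0.15 with PBS over uninjured muscle (adjusted p = 0.000141) and by 1.68 ± 0.15 with gel (adjusted p = 1.36e-05).

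Other genes listed as PPAR targets of fatty acid uptake and oxidation did not follow Pdk4 and Ucp3. The 29 listed include Acaca and Acacb, which make malonyl-CoA and do not take up or oxidise fatty acids. Of these 29, 6 rose and 0 fell from uninjured to PBS, with a median of 0.34, and 27 were above 0. Acsl1, which activates fatty acids, rose by 0.85 ± 0.18 (edgeR adjusted p = 0.0103), and Cat, peroxisomal catalase, by 0.63 ± 0.12 (adjusted p = 0.00715). From PBS to gel 12 fell and 0 rose, with a median of -0.40. Among them Etfdh, which passes electrons from acyl-CoA dehydrogenases, fell by 0.85 ± 0.18 (adjusted p = 0.00368). Under muscle marker scaling 16 rose and 0 fell with PBS over uninjured, and 5 fell and 2 rose with gel over PBS with a median of -0.02. Against uninjured muscle 1 fell and 0 rose with gel, with a median of -0.05 that became 0.44 under that scaling, where 17 rose. Without gel 3, 20 fell from PBS to gel and 8 from uninjured to gel, with 0 rising in either.

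The pyruvate dehydrogenase complex is the target of the Pdk4 kinase. Of 10 genes of the complex, its phosphatases and the pyruvate carrier, 3 rose and 0 fell from uninjured to PBS, with a median of 0.53, among them the phosphatase gene Pdp1, whose product reverses the kinase, by 0.80 ± 0.17 (edgeR adjusted p = 0.0105). From PBS to gel 5 fell and 0 rose, with a median of -0.44, Pdpr by 2.00 ± 0.33 (adjusted p = 0.00173) and Pdha1, the subunit that carries the phosphorylation sites, by 0.86 ± 0.20 (adjusted p = 0.00549). Under muscle marker scaling that count was 2 fallen and 1 risen, with a median of -0.05. From uninjured to gel 2 fell and 0 rose, with a median of 0.03. Of all genes tested, 6.17% passed from uninjured to PBS, 29.8% from PBS to gel and 25.6% from uninjured to gel.

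Of 16 lipid droplet and lipolysis genes tested, 1 rose and 0 fell from uninjured to PBS, 1 rose and 4 fell from PBS to gel, and 3 rose and 1 fell from uninjured to gel, with medians of 0.21, 0.09 and 0.03. The shares of all genes tested that passed in these comparisons were 6.17%, 29.8% and 25.6%. Fitm2, which helps droplets bud, fell from PBS to gel by 0.90 ± 0.19 (edgeR adjusted p = 0.00387), and Pnpla2, the triglyceride lipase of fat and muscle, by 0.71 ± 0.20 (adjusted p = 0.0154), in the direction opposite to Plin2. Scaling to muscle fibre markers turned the count to 6 rising and 1 falling, and Pnpla2 then missed the threshold (adjusted p = 0.0538).

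Glucocorticoids also raise Pdk4 and Angptl4 in fasting, and their target list was lower outside uninjured muscle. Of 16 glucocorticoid-induced genes 11 fell and 0 rose from uninjured to PBS, with a median of -1.08, and 14 fell and 0 rose from uninjured to gel, with a median of -1.52. Fkbp5, a receptor co-chaperone gene used as a readout of the hormone, was at 56.4, 89.3, 95.7 and 97.8 CPM in uninjured libraries, 9.18, 10.1, 17.4 and 8.94 CPM with PBS and 7.52, 8.04, 11.1 and 6.85 CPM with gel. Fkbp5 fell by 2.89 ± 0.25 with PBS (edgeR adjusted p = 3.99e-05) and by 3.34 ± 0.25 with gel (adjusted p = 1.36e-05). Among transcription factor genes, with PBS Zbtb16 fell by 2.13 ± 0.17 (adjusted p = 1.08e-05) and Cebpd fell by 2.90 ± 0.23 (adjusted p = 1.9e-05). From PBS to gel 3 rose and 4 fell, with a median of -0.12 that became 0.28 under muscle marker scaling, where 6 rose and 1 fell. The part of this hormone, of feeding and of the time of day in the fall of Pdk4 and Ucp3 was not tested.

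**Figure D5:**
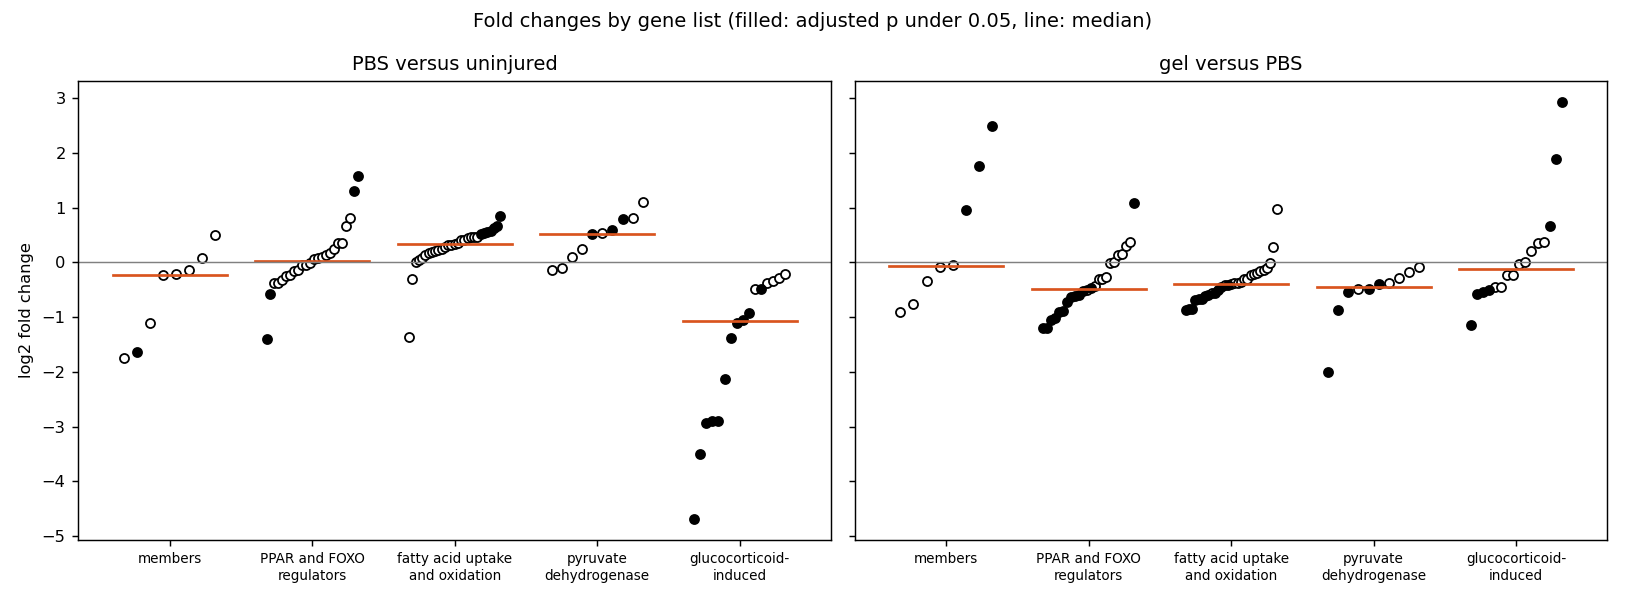
Log2 fold changes (vertical axis) of the 8 genes and of 4 related gene lists, 1 point a gene, for PBS against uninjured and gel against PBS, filled where edgeR's adjusted p was under 0.05, with a line at the median. Glucocorticoid-induced genes lie under 0 on the left, and most filled points of the regulator and fatty acid lists lie under 0 on the right, which for the regulators did not hold under scaling to muscle fibre markers.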

How the data were processed

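RNA-seq libraries of 12 mouse tibialis anterior muscles were compared, 4 each of gel, PBS and uninjured. The deposited values are raw counts of reads per gene symbol, with 1 column for each library. Alignment used STAR and build mm39, and edgeR was also named, per the submitters' processing notes. Which program counted the reads, with which strand setting and annotation, is not given in the sources used here, so reads shared with overlapping genes cannot be assigned with certainty. Among the 8 genes this touches Cpt1a, Plin2 and Txnip, where Gm36532, Gm12551 and Gm15441 overlap in RefSeq, the last 2 at no more than 46 counts in a library.

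The main test used edgeR 4.0.16 under R 4.3.3. Genes passing filterByExpr (13499), with trimmed mean of M values scaling of libraries, were fitted with a robust quasi-likelihood model of 3 group means, leaving 9 residual degrees of freedom. P-values were adjusted by the Benjamini-Hochberg method over these genes. Genes with an adjusted p under 0.05 are said to have risen or fallen. Log2 CPM used a prior count of 2, and SE is the log2 fold change over the square root of F. Fits were tested on simulated data. Replicates of a group differed by more than sampling noise, with a chi-square per gene of at least 6.5. Nothing more says that libraries came from separate animals than their numbers, so p-values may measure only the spread between samples.

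Gel and PBS libraries of the same number were paired, since the labels put gel and PBS in the left and right legs. The deposited names carry the numbers, but no label states outright that a number stands for an animal. Their deviations from the group means correlated at 0.14, -0.06, 0.31 and 0.08, and those of differently numbered libraries at -0.27 to 0.20, so the counts do not show the pairing and it rests on the protocol and the names. Alternatives were DESeq2 1.42.0, limma 3.58.1 with voom, other scalings and filters, the 2 groups alone, the animal block and leaving out each library. The block was fitted to the 2 groups compared alone, so it differs from the main test also in leaving out the third group.

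The 8 genes and the lists around them were chosen with earlier results of these data known. Of each list, up to 4 genes with the smallest p among those called in a comparison, and the closest relative of each of the 8, could be named; a few of these are not reported here. Levels per length divide CPM by the union of exons in GENCODE vM21. Promoters and overlaps come from RefSeq on GRCm38.p6.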

Additional observations from a re-analysis of the deposited data

Results flagged for a closer look

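Among the 8 genes in 3 groups, 24 sets of 4 libraries were checked for a library far from the others by Dixon's ratio with a critical value of 0.829, and 2 were beyond it, where chance gives about 1 in 20. Acot2 was at 25.02 CPM in PBS 3, with the other PBS libraries between 17.2 and 17.6 CPM. Plin2 was at 39.1 CPM in PBS 2, with the others between 46.0 and 47.2 CPM.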

How the results depend on the processing

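Over 504 alternative values for the 8 genes, 466 kept their direction and side of the threshold, 5 lost the threshold, 22 gained it and 11 changed sign. The falls of Ucp3 with PBS and with gel, of Pdk4 with gel and the rise of Plin2 with gel over uninjured muscle were called in all 21 alternatives each. Genes at a few CPM, such as Angptl4, rest on few reads, and with 4 libraries a group a difference that misses the threshold is not shown to be absent.

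Changes of sign concerned differences that had not passed. For gel against PBS, scaling to muscle fibre markers gave 0.28 for Ucp3, 0.34 for Acot2 and 0.029 for Txnip, and upper-quartile scaling gave 0.00015 for Acot2. For gel against uninjured, muscle marker scaling gave 0.31 for Acot2. Leaving out 1 library at a time gave -0.33 to 0.051 for Ucp3 and -0.24 to 0.10 for Acot2 in gel against PBS, and -0.13 to 0.21 for Plin5 in PBS against uninjured. The cause was not tested.

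Of the 8 genes, 1 was called between PBS and uninjured, but 2 with limma voom, 2 with DESeq2, 3 with the 2 groups alone and 2 with the replicate block. Between gel and uninjured 3 were called, but 5 with muscle marker scaling, 5 with DESeq2 and 3 to 6 when 1 library was left out, the highest without gel 3. Over all genes, 833 were called between PBS and uninjured, but 1415 with DESeq2, 2339 with the 2 groups alone, 2539 with the replicate block and 378 to 1693 without 1 library, the highest without gel 3 and the lowest without uninjured 4. Between gel and PBS 4022 were called, but 2559 with the 2 groups alone and 2456 to 5962 without 1 library. Between gel and uninjured 3449 were called, but 7120 with muscle marker scaling, 6787 higher and 333 lower, and 2275 to 5341 without 1 library, lowest without gel 4 and highest without gel 3. Muscle marker scaling moved the median of all genes by 0.11, 0.41 and 0.52 in the 3 comparisons, and the share of genes called that were higher to 79.8, 92.1 and 95.3% from 45.1, 55.6 and 56.6%. Other scalings moved the median by at most 0.06.

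With the replicate block, gel against PBS called 2971 genes and 2 of the 8, with Pdk4 gained and Angptl4 and Plin2 lost as given above. Uninjured libraries share only a number with the others. Their same-numbered deviations correlated at 0.008 to 0.088 with PBS. With the block Plin2 was called in PBS against uninjured (0.50, edgeR adjusted p = 0.00327). It was called there without the block as well, once the 2 groups were fitted alone (0.50, adjusted p = 0.00236). Txnip was called with the block in gel against uninjured (-0.65, adjusted p = 0.0377). Against the main test, no other call among the 8 genes differed with the block.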

Other observations

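Genes that respond to insulin and feeding were not moved in 1 direction. Of 12 listed, 10 were tested: 1 rose and 2 fell from uninjured to PBS, 1 rose and 3 fell from PBS to gel, and 2 rose and 4 fell from uninjured to gel, with medians of -0.16, 0.02 and -0.15. Among all genes tested 6.17%, 29.8% and 25.6% passed in these comparisons. Srebf1, a lipid synthesis regulator that insulin raises, rose by 0.98 ± 0.15 with PBS over uninjured muscle (edgeR adjusted p = 0.00166). Pck1 and Fgf21, fasting genes of liver, had no more than 14 counts in any library and were not tested.

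Among 13 glucose uptake and glucose-sensing genes, 1 rose and 1 fell from uninjured to PBS, 1 rose and 4 fell from PBS to gel, and 1 rose and 5 fell from uninjured to gel, with medians of -0.07, -0.40 and -0.60. Here too the shares over all genes tested were 6.17%, 29.8% and 25.6%. Hk1, a hexokinase of many cell types, rose by 1.00 ± 0.23 from PBS to gel (edgeR adjusted p = 0.00549), while Pfkfb3, which makes an activator of glycolysis, fell by 1.33 ± 0.27 (adjusted p = 0.00436). Txnrd1, thioredoxin reductase of the system that Txnip binds, fell by 0.66 ± 0.12 (adjusted p = 0.00273), a call lost when libraries were scaled to muscle fibre markers (adjusted p = 0.0874).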
